A study of Caenorhabditis elegans with 2 samples.

Results

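The genes of moulting, cuticle processing and apical matrix in Caenorhabditis elegans were examined for binding of ELT-3, an epidermal transcription factor of the GATA class. They are 30 of the 19973 protein-coding genes on the nuclear chromosomes, and were taken by name from a list of genes with these roles. All 30 names were found in the Ensembl annotation of WBcel235, the assembly also named ce11. The window of a gene ran from 2 kb upstream of its first annotated start to its annotated end, and a peak belonged to a gene when its summit lay in that window.

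Binding was measured by chromatin immunoprecipitation and sequencing (ChIP-seq) in L1 larvae, the first larval stage, as 1 group of 2 biological replicates with no second condition. Both replicates were whole animals of mixed sex of strain OP75, whose genotype is unc-119(ed3) III; wgIs75, and in which a stably kept transgene supplies ELT-3 carrying GFP-FLAG at its C terminus. The labels give elt-3 as the antibody target, do not give the promoter of the transgene, and give the age beyond the stage as unknown. Whether the precipitation acted on ELT-3 itself or on the tag is not stated, and the control library was not analysed here. The lists come from whole animals, so binding in a few cells and weak binding in many cells cannot be told apart.

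The cuticle is the extracellular coat that the epidermis secretes over its apical face, built mainly of collagens and other matrix proteins. At each moult the worm makes a new cuticle under the old one, loosens the old one with secreted proteases and sheds it. Collagen chains are hydroxylated and folded in the endoplasmic reticulum, trimmed by proteases after secretion, and cross-linked through tyrosine by oxidase and peroxidase enzymes. ELT-3 is best known as a factor of the main epidermis, where it acts downstream of other epidermal GATA factors.

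Of the 30 genes, 5 had a summit of the thresholded set in the window: mlt-7, pdi-2, dpy-6, lrp-1 and nekl-2. This is 16.7% (95% Wilson interval 7.34 to 33.6%, counting error over genes only), beside 6.05% of all protein-coding genes. The thresholded set holds the 1262 peaks of the pooled replicates that the authors kept under a threshold on reproducibility. These are the 1262 of highest signal in the longer pooled list. A place in the set thus rests on pooled signal and not on the rank in each replicate. The longer pooled list, of 5659 peaks including those below that threshold, was deposited as peaks and background together. It placed a summit in the windows of 15 of the 30 (Wilson interval 33.2 to 66.8%), beside 23.1% of all protein-coding genes. The other 10 of these had only a summit below the threshold: tsp-15, bli-4, dpy-31, nas-36, zmp-2, phy-2, noah-1, let-653, let-4 and ptr-4. The other 15 had no summit in either list. They were nekl-3, mlt-2, mlt-3, mlt-4, bli-3, nas-37, bli-5, mlt-11, dpy-18, noah-2, fbn-1, sym-1, mlt-8, mlt-9 and mlt-10.

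The peaks at these genes were mostly on the weaker side for this experiment. The 7 thresholded summits in the 5 windows had signals, the strength given to a peak by the authors' caller, from 42.98 to 72.8 with a median of 46.8, and the whole thresholded set had a median of 56.3 and a highest value of 271.5. The weakest thresholded peak anywhere had a signal of 42.89 and the strongest peak left out 42.88. Of the 5 genes, dpy-6 at 42.98 and nekl-2 at 43.1 lay just inside that limit. The 19 summits below the threshold had signals from 24.9 to 37.8. Their −log10 q-values ran from 0.0263 to 0.856 with a median of 0.124, beside 1.29 to 2.32 at the 7 thresholded ones. Such low values do not set these weaker summits apart from background. With only thresholded peaks at or above that median of 56.3 counted, 2 genes remained, lrp-1 and mlt-7, beside 3.08% of all protein-coding genes.

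**Figure D1:**
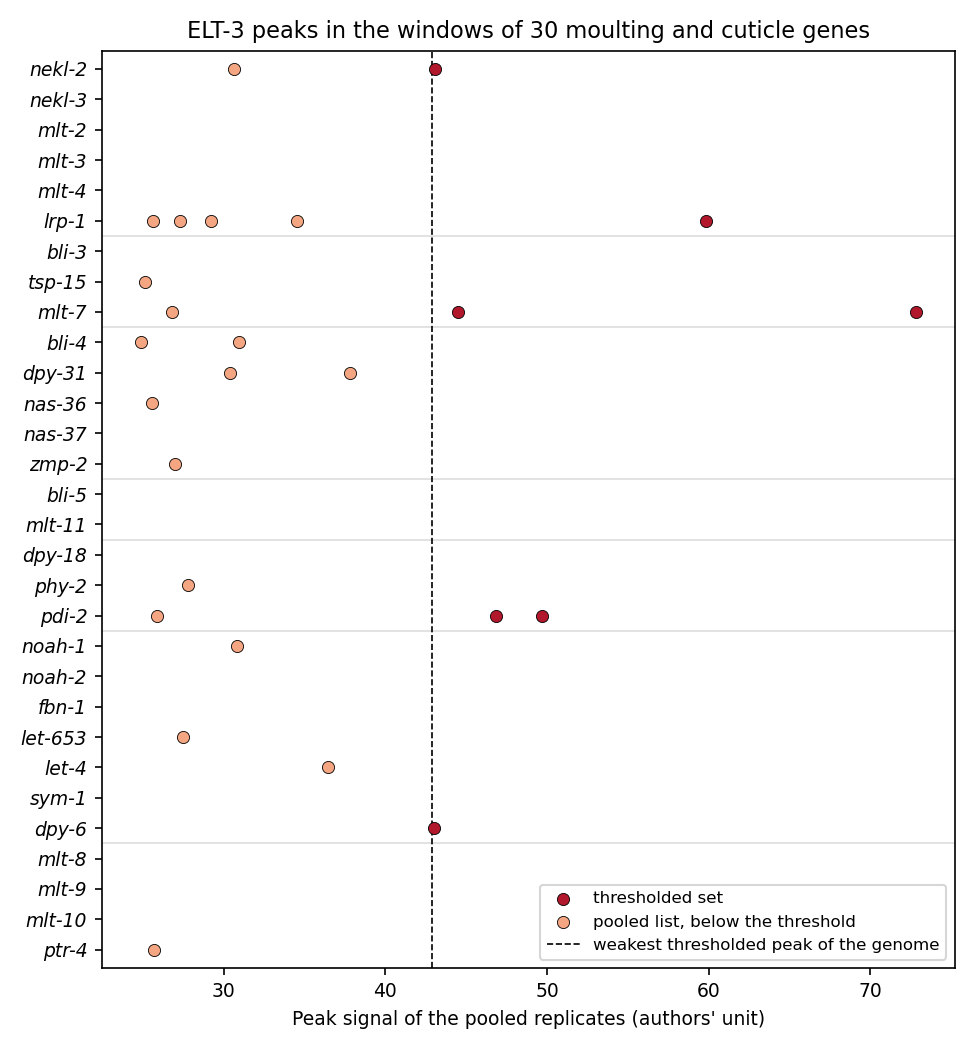
Signal of every pooled-list summit (x axis, authors' unit) in the windows of the 30 genes, grouped by role with grey lines between groups. Dark points are the 7 summits of the thresholded set and light points the 19 below it, and the dashed line marks the weakest thresholded peak at 42.89; mlt-7 has the strongest point at 72.8, and 15 genes have none.

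Window length matters for these counts, since a long window can hold more summits. Windows of the 30 genes ran from 3887 bp at nekl-3 to 21968 bp at lrp-1. Among windows under 5 kb, 2 of 8 of these genes had a thresholded summit, beside 4.7% of all protein-coding genes. Between 5 and 10 kb it was 1 of 15, beside 7.86%, and from 10 kb upward 2 of 7, beside 12.2%. For the pooled list the counts were 4 of 8 (18.1% of all genes), 8 of 15 (29.7%) and 3 of 7 (47.1%). The gene set was therefore above all genes in 2 of 3 length classes on either list, with at most 15 genes in a class. Counted by length, the merged windows of the gene set held 7 thresholded summits in 0.2436 Mb, or 28.7 per Mb, and those of all protein-coding genes 1019 in 81.67 Mb, or 12.5 per Mb.

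**Figure D2:**
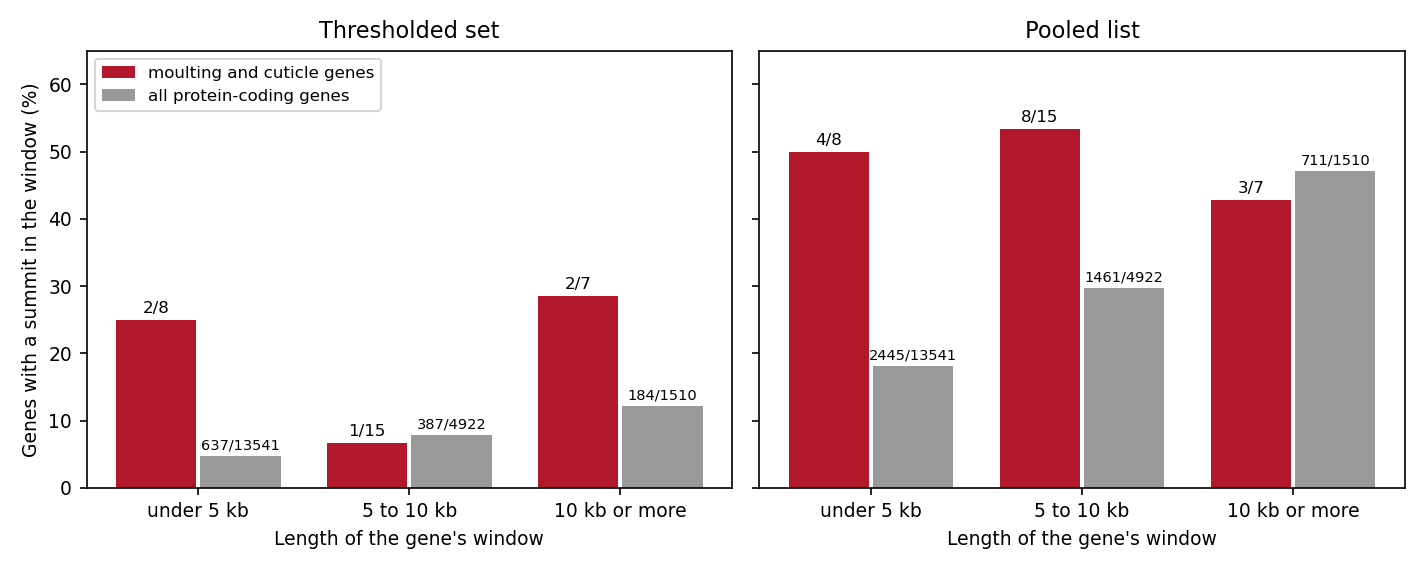
Percent of genes with a summit in the window (y axis) by window length (x axis), for the thresholded set on the left and the pooled list on the right. Dark bars are the 30 moulting and cuticle genes and grey bars all protein-coding genes, with the numbers of genes above the bars; in the middle class of the thresholded set the dark bar is 1 of 15, below the grey one at 7.86%.

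All 7 thresholded summits lay upstream of the gene's first start, at distances from 1786 bp to 1 bp. Over all protein-coding genes, 67.1% of the 1387 pairs of a gene and a thresholded summit were upstream. With only the 2 kb before the start counted, the same 5 genes of 30 remained, beside 4.46% of all genes. The pooled list placed a summit there for 11 of 30, beside 14.2%. The summits below the threshold were placed differently: 7 of 19 lay upstream (46.1% over all genes), 7 in coding exons and 5 in introns. Coding exons held 36.8% of these weaker summits, beside 31.2% of weaker summits in all gene windows, while for thresholded summits they held 0 of 7, beside 2.26%.

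**Figure D3:**
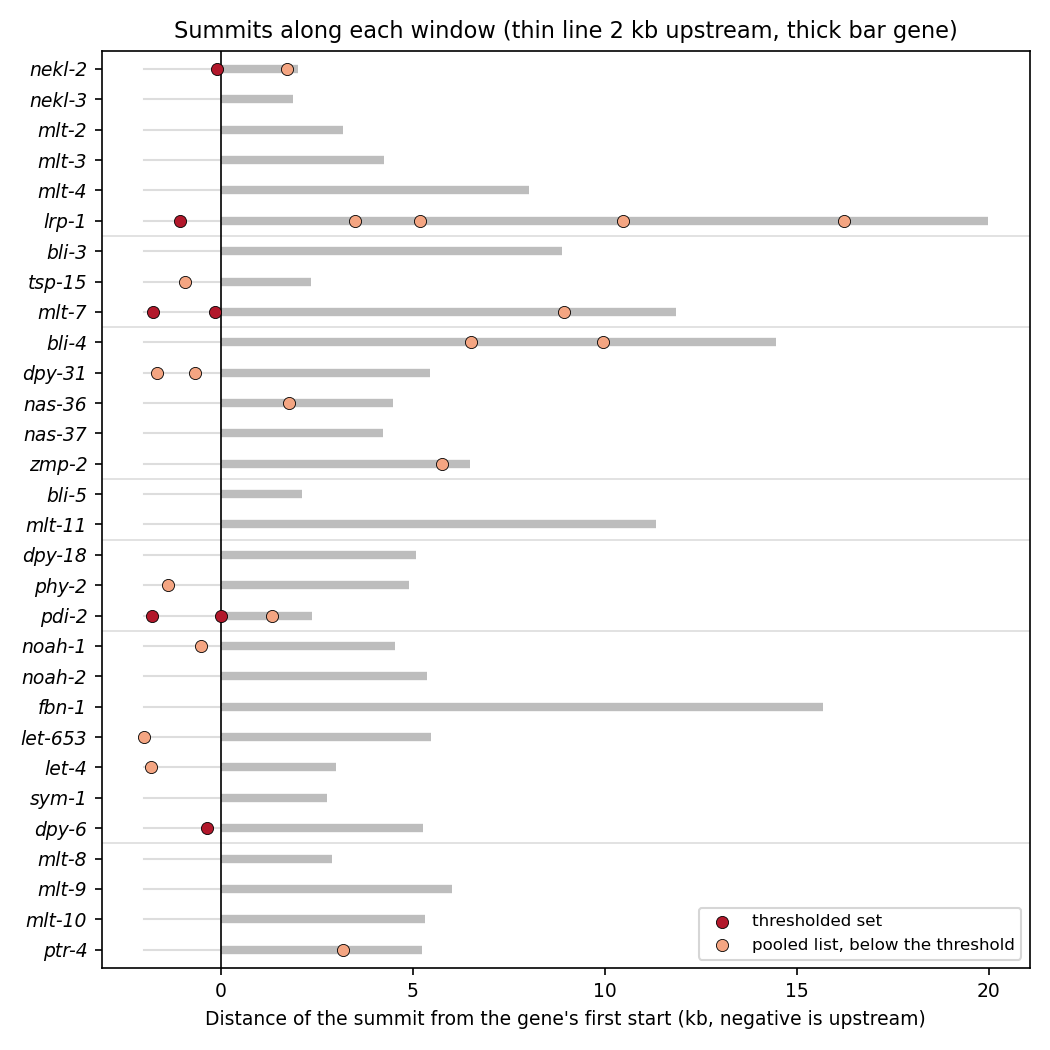
Position of each summit relative to the gene's first start (x axis in kb, negative is upstream), 1 row per gene. The thin line is the 2 kb upstream and the thick bar the gene; the 7 dark points (thresholded set) all lie left of 0, and of the 19 light points (below the threshold) 7 lie left of it.

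Among the oxidases and their partner, the peroxidase gene mlt-7 stood out with 2 thresholded summits upstream of its start. The enzyme MLT-7 is a heme peroxidase that works with the dual oxidase BLI-3 in cross-linking the cuticle. Its outer summit, 1766 bp upstream, had signal 40.4 and rank 323 in replicate 1, and signal 30.2 and rank 501 in replicate 2. In the pooled list this peak (chrII:4391113-4391368) had signal 72.8 and rank 315 of 5659, the strongest of the whole gene set. The inner summit, 159 bp upstream (chrII:4392720-4392975), ranked 739 in replicate 1 with signal 29.99 and 3294 in replicate 2 with signal 15.4, and its pooled signal was 44.5. Both replicates thus placed the outer site among their 1262 strongest peaks, and only replicate 1 did so for the inner site. For both sites the nearest protein-coding start was that of mlt-7 itself, and neither lay in the window of another protein-coding gene. Another summit, in an intron, 8950 bp downstream of the start, had a pooled signal of 26.8 and ranks of 1816 and 22187, and was nearest to the start of ZK430.5. The sequences at the summits are shown because both hold runs of GAGA and neither holds the GATA motif WGATAR, where W stands for A or T and R for A or G. They are read from the WBcel235 genome, 50 bases on either side of the summit where no annotated UTR intervenes, 5′ to 3′ on the strand of the gene, with capitals marking GAGAGA or its complement TCTCTC, and WGATAR or its complement where present.
mlt-7 outer summit, chrII:4391191-4391291, + strand: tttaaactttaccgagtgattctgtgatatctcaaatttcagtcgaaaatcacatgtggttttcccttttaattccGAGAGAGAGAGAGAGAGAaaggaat
mlt-7 inner summit, chrII:4392798-4392898, + strand: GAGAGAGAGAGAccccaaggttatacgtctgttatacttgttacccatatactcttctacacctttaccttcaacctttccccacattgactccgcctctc

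The dual oxidase gene bli-3, whose product makes the hydrogen peroxide for this reaction, had no summit in either list. Its best peak in the replicate lists ranked 6257 in replicate 1 and 6604 in replicate 2. The gene of the tetraspanin TSP-15, a membrane partner of BLI-3, had a summit 926 bp upstream with a pooled signal of 25.1. The overlapping peaks ranked 6064 and 12960, and that of replicate 1 had its own summit 126 bp away.

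Of the genes for collagen hydroxylation and folding, pdi-2 was marked most clearly. It encodes a protein disulfide isomerase that is also a subunit of the prolyl 4-hydroxylase complexes. A summit 1 bp upstream of its start (chrX:4524026-4524281) had signal 26.4 and rank 1010 in replicate 1, signal 22.9 and rank 1025 in replicate 2, and pooled signal 49.7. A second thresholded summit lay 1786 bp upstream (chrX:4522241-4522496), with signal 27.5 and rank 906 in replicate 1, signal 22.2 and rank 1115 in replicate 2, and pooled signal 46.8. Both sites were among the 1262 strongest of both replicates. The outer one lay 225 bp from the start of the neighbouring gene C07A12.7 and also in that gene's window, so it cannot be assigned to pdi-2 alone. Another summit, in a coding exon 1330 bp downstream of the start, had pooled signal 25.9 and an overlapping peak only in replicate 2, at rank 2340. The sequence at the start site is rich in G and C (72.5% of its 51 bases) and holds none of the searched motifs in the bases shown.
pdi-2 start summit, chrX:4524104-4524154, + strand: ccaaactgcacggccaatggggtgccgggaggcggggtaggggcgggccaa
pdi-2 outer summit, chrX:4522319-4522419, + strand: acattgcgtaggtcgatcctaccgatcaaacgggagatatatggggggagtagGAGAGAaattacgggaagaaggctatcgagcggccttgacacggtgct

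The catalytic subunits of prolyl 4-hydroxylase were less marked than pdi-2. The gene phy-2, for one alpha subunit, had a single summit 1363 bp upstream with pooled signal 27.8, and ranks of 8553 in replicate 1 and 6361 in replicate 2. For dpy-18, the other alpha subunit gene, no summit lay in the window, and its best replicate peaks ranked 8696 and 10180. The genes of one enzyme complex thus ranged from 2 thresholded summits to none listed.

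In the apical matrix group, of 7 genes, dpy-6 had a thresholded summit. It encodes a mucin-like protein of the extracellular coat, and worms without it are short and fat. The summit lay 369 bp upstream (chrX:8455881-8456136), with signal 21.6 and rank 1688 in replicate 1, signal 21.7 and rank 1165 in replicate 2, and pooled signal 42.98 at rank 1257. It was therefore within the 1262 strongest of replicate 2 and outside them in replicate 1. The same summit lay in the window of F16F9.3, although the dpy-6 start was the nearest. The sequence is shown for its GAGAGA near the summit.
dpy-6 summit, chrX:8455959-8456059, - strand: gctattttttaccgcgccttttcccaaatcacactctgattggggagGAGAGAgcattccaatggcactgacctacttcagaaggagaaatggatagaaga

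The matrix genes let-4, noah-1 and let-653 had summits below the threshold. The gene let-4, for a transmembrane protein with extracellular leucine-rich repeats, had one 1815 bp upstream, with a pooled signal of 36.4. This site had signal 10.9 and rank 17383 in replicate 1, and signal 21.1 and rank 1247 in replicate 2, so only replicate 2 placed it among its 1262 strongest peaks. It also lay in the windows of C44H4.4 and lron-1. At noah-1, for a zona pellucida domain protein of the epidermal coat, a summit 513 bp upstream had a pooled signal of 30.8 and ranks of 4853 and 3697, with 3 WGATAR motifs within 50 bp. The summit counted for let-653, another zona pellucida domain gene, lay 1999 bp upstream, at the edge of the window, and also in the window of cutl-27. It had pooled signal 27.5, rank 1337 in replicate 1 and no overlapping peak in replicate 2. The zona pellucida gene noah-2, the fibrillin-related gene fbn-1 and the leucine-rich repeat gene sym-1 had no summit. The window of fbn-1 is 17693 bp long, and its best replicate peaks ranked 8787 and 7490.

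Of the 5 protease genes, 4 had a summit in the pooled list, beside 23.1% of all protein-coding genes, and 0 in the thresholded set, beside 6.05%. The strongest was at dpy-31, for an astacin metalloprotease that trims the C-terminal end of procollagens. A summit 665 bp upstream (chrIII:7201413-7201668) had signal 25.8 and rank 1061 in replicate 1, signal 20.6 and rank 1353 in replicate 2, and pooled signal 37.8 at rank 1640. The replicate 2 peak had its own summit 159 bp away. A second, 1666 bp upstream, had signals of 25.7 and 9.36 in replicates 1 and 2, ranks of 1071 and 18504, and pooled signal 30.4. Here too the replicate 2 peak had its own summit elsewhere, 219 bp away. It lay in the window of pfd-5, a prefoldin subunit gene, whose start was the nearest. Its sequence is shown because it holds 2 WGATAR motifs, both as the complement TTATCA.
dpy-31 outer summit, chrIII:7200490-7200590, + strand: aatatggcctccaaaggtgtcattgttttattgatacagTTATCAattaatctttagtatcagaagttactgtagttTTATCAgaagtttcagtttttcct

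The other protease summits lay inside genes. At bli-4, for a subtilisin-like proprotein convertase that acts on cuticle collagens, a summit in a coding exon 6507 bp downstream of the start had pooled signal 30.95 and ranks of 8668 and 5192, with a WGATAR motif centred 1.5 bp from it. A second, in an intron at 9956 bp, had pooled signal 24.9 and ranks of 4986 and 16846, also with a WGATAR motif within 50 bp. The nearest start to that summit was of mut-2. The metalloprotease gene zmp-2 had a summit in an intron at 5752 bp with pooled signal 27.0 and ranks of 14194 and 2789. The astacin gene nas-36, needed to shed the old cuticle, had one in a coding exon at 1770 bp with pooled signal 25.5 and ranks of 6941 and 9475. No summit was listed for nas-37, the other astacin gene of shedding. The 2 genes for proteins with Kunitz-type inhibitor domains, bli-5 and mlt-11, had no summit either. In the 13333 bp window of mlt-11 the best replicate peaks ranked 5559 and 3667, high enough in each to enter a list of the pooled length, and at bli-5 they ranked 6150 and 22627.

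Among the other moulting genes, ptr-4 had the only summit. It encodes a patched-related transmembrane protein. The summit lay in an intron 3178 bp downstream of the start (chrX:6062680-6062935), with signal 12.0 and rank 12732 in replicate 1, signal 12.7 and rank 6652 in replicate 2, and pooled signal 25.7. The sequence shows a WGATAR motif, as its complement TTATCT, centred 6.5 bp from a weak summit. The genes mlt-8, mlt-9 and mlt-10 had no summit in either list. Their best peaks ranked 6730, 8459 and 8062 in replicate 1, and 4527, 4827 and 9522 in replicate 2.
ptr-4 summit, chrX:6062758-6062858, - strand: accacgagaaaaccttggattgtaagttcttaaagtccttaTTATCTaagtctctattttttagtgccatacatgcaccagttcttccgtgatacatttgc

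The conserved kinases NEKL-2 and NEKL-3 act with the ankyrin repeat proteins MLT-2, MLT-3 and MLT-4 in membrane trafficking of the epidermis at the moult, and LRP-1 is a large endocytic receptor of the same surface. Of these 6 genes, lrp-1 and nekl-2 had thresholded summits, beside 6.05% of all protein-coding genes. The other 4 had no summit in the pooled list, which holds one for 23.1% of all genes, although each had a peak in at least 1 replicate list. No sequence of these 2 sites is shown.

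At lrp-1 the thresholded summit lay 1066 bp upstream (I:7612982-7613237). It had signal 38.03 and rank 381 in replicate 1, signal 23.7 and rank 957 in replicate 2, and pooled signal 59.8 at rank 535. It was the second strongest of the gene set and among the 1262 strongest of both replicates. The gene also held 4 of the 19 weaker summits, between 3498 and 16224 bp downstream of its start, with pooled signals from 25.6 to 34.6. The strongest, in a coding exon at 10479 bp, ranked 1374 in replicate 1 and 12661 in replicate 2. The one at 16224 bp, also in a coding exon, ranked 4586 and 7664, and was nearest to the start of capg-1. A coding exon summit at 3498 bp had no overlapping peak in replicate 1 and rank 1745 in replicate 2. An intronic one at 5201 bp ranked 6519 and 1940, and its replicate 1 peak had its own summit 110 bp away. The window of lrp-1 is the longest of the gene set.

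At nekl-2 the thresholded summit lay 105 bp upstream (I:6662928-6663183), with signal 22.8 and rank 1447 in replicate 1, signal 21.3 and rank 1222 in replicate 2, and pooled signal 43.1 at rank 1250. The WGATAR motif from 6663066 to 6663071, of the form TGATAA, was centred 12.5 bp from the summit. The summit also lay in the window of ZC581.7, a predicted tyrosine kinase gene, but the nekl-2 start was the nearest. A weaker summit in a coding exon 1735 bp downstream had pooled signal 30.6, and ranks of 13072 and 1610. The window of nekl-3 held no summit, and the best replicate peaks there ranked 19603 and 12331.

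Of the 7 thresholded summits, 5 ranked within the 1262 strongest peaks of replicate 1 and 6 within those of replicate 2. Over the whole thresholded set the shares were 78% and 77.2%. The thresholded set holds the strongest peaks of the pooled replicates, so this is a description of these summits and not a check. All 7 had a peak in both replicates, as did nearly all thresholded peaks, and their median ranks were 906 and 1115, beside 649 and 668.5 over the whole set. Of the 19 weaker summits, 17 had a peak in replicate 1 and 18 in replicate 2, beside 3960 and 3811 of all 4397 weaker summits. Among the 19, 2 ranked within the 1262 strongest of replicate 1 and 1 within those of replicate 2. Over all weaker summits the shares were 6.25% in replicate 1 and 6.32% in replicate 2. Counted from each replicate's own 1262 strongest peaks, 4 of the 30 genes had a summit in the window in replicate 1, beside 5.65% of all genes, and 6 in replicate 2, beside 6.12%. Both replicates did so for 3 genes, beside 3.77% of all genes: lrp-1, mlt-7 and pdi-2. The list of replicate 1 had 25325 peaks and that of replicate 2 26500, background peaks included.

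**Figure D4:**
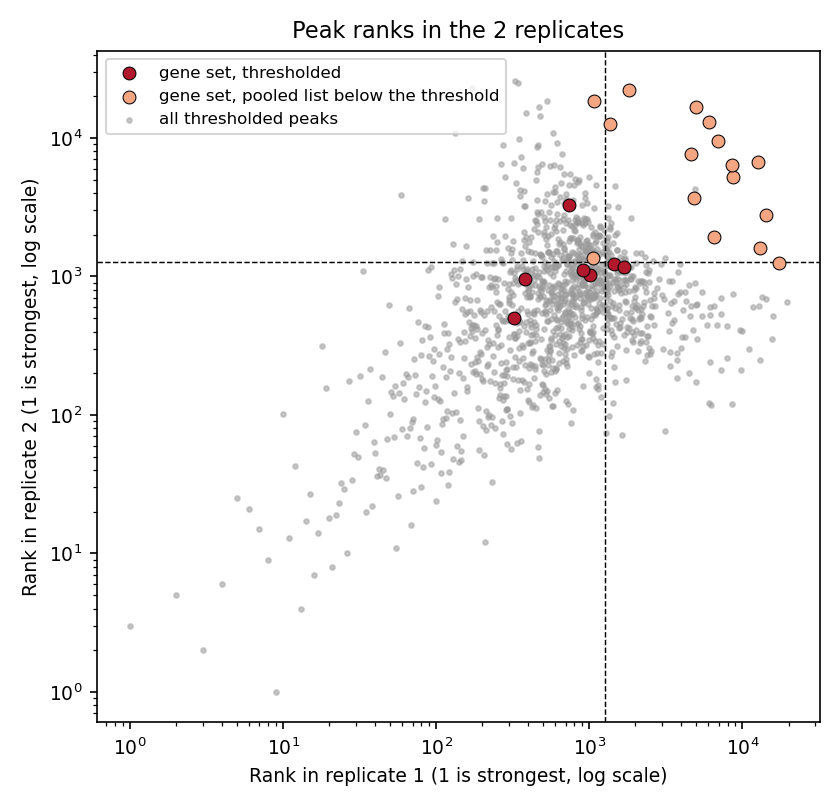
Rank in replicate 1 (x axis) against rank in replicate 2 (y axis), both on log scales, where 1 is the strongest peak. Dark points are the 7 thresholded summits of the gene set, light points the weaker summits with a peak in both replicates, grey points all thresholded peaks, and dashed lines mark rank 1262; the 7 dark points lie between ranks 323 and 1688 in replicate 1.

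WGATAR lay within 50 bp of 1 of the 7 thresholded summits, at nekl-2, beside 50.2% of all 1262. In windows of the same size centred 500 bp to the left and right, 1 and 2 of the 7 had it, beside 22.7% and 19.1% of all 1262. Of the 19 weaker summits, 5 had it, beside 28.9% of all weaker summits. In their windows to the left and right, 3 and 1 of the 19 had it, beside 21.8% and 20.9%. These 5 were at bli-4 with 2, and at dpy-31, noah-1 and ptr-4 with 1 each. Read by gene, a thresholded summit with the motif was present for 1 of 30 genes, beside 2.86% of all protein-coding genes, and a pooled one for 5 of 30, beside 8.22%. Within 25 bp it was 1 of the 7 thresholded summits, beside 28.6% of all, and within 100 bp 5 of the 7, beside 67.1%. The bare core GATA lay within 50 bp of 5 of the 7, beside 68.3%. The shares within 100 bp, for the core, and for WGATAR at the weaker summits were thus near those over all summits.

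The motif itself was not scarce near these genes. All 30 had at least 1 WGATAR in the 2 kb upstream of the first start, as did 98.4% of all protein-coding genes. The median was 5 sites, the same as for all genes. It was 6 (range 4 to 8) among the 5 genes with a thresholded summit, 6.5 (1 to 12) among the 10 with only a weaker one, and 5 (3 to 10) among the 15 with none, so the ranges overlapped. The gene noah-1 had the most, 12, and bli-4 the fewest, 1.

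**Figure D5:**
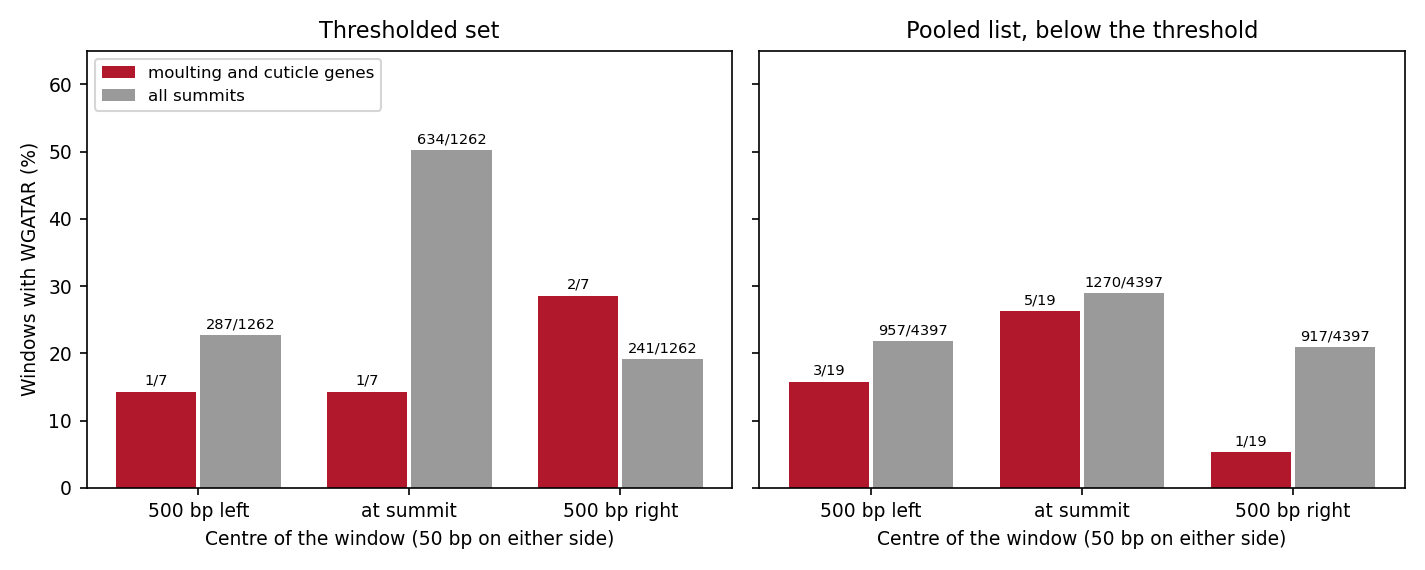
Percent of windows of 50 bp on either side with WGATAR (y axis), centred on the summit or 500 bp to either side (x axis), for thresholded summits on the left and weaker ones on the right. Dark bars are summits of the gene set and grey bars all summits of the list, with counts above; at thresholded summits the dark bar is 1 of 7 and the grey one 634 of 1262.

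More than 1 thresholded summit lay in the windows of mlt-7 and pdi-2, 2 of 30 genes, beside 0.736% of all protein-coding genes. The outer summit of pdi-2 was nearest to the start of C07A12.7, so by nearest start only mlt-7 keeps more than 1. The share of all genes was not counted in that way. Of the 7 thresholded summits, 3 were shared with the window of a neighbour. Over all protein-coding genes, the 1019 thresholded summits in windows made 1387 pairs with a gene, so sharing also occurs at other sites. What share of all summits lay in more than 1 window was not counted. With each summit given only to the gene with the nearest start, the same 5 genes were counted, beside 4.26% of all genes. Just outside the windows, a summit of signal 32.5 lay 10 bp beyond the upstream edge of bli-4. A thresholded summit of signal 66.4 lay 536 bp beyond the upstream edge of nekl-3, nearest to the start of F17E5.2, and another of signal 73.0 lay 439 bp beyond the end of dpy-31, nearest to the ribosomal protein gene rpl-6.

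A further 52 genes of moulting, cuticle processing and apical matrix were listed from general knowledge, of which 51 were found by name. Of these, 8 (15.7%) had a thresholded summit in the window and 23 (45.1%) a pooled one, beside 6.05% and 23.1% of all protein-coding genes. The strongest lay at further genes of protein folding and of proteolysis. The protein disulfide isomerase gene pdi-6 had one 19 bp upstream with signal 115.2, and ranks of 107 and 54. The cathepsin gene cpz-1 had one with signal 99.6 and ranks of 211 and 78. At pdi-3, another protein disulfide isomerase gene, the signal was 86.0, with ubql-1 having the nearest start. The others were peb-1, a zinc finger factor gene (66.9), the endocytic adaptor genes dab-1 (58.5), apa-2 (46.9) and fcho-1 (44.4), and the cuticlin gene cut-2 (53.3). Of these 8 strongest summits, those of cpz-1, dab-1, peb-1 and fcho-1 lay 514, 441, 4243 and 5030 bp downstream of the first start. Those of pdi-6, pdi-3, cut-2 and apa-2 lay upstream. Of the same 8, that of peb-1 had WGATAR within 50 bp and the others did not, beside 50.2% of all 1262 thresholded summits.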

How the data were processed

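ELT-3 ChIP-seq peak lists of 2 biological replicates were used. Per the deposited file lists, the authors made ce11 lists from each replicate's alignments and from both together, each with a further file listed as a source, and kept the peaks passing a threshold on the irreproducible discovery rate. For the aligner and the peak caller, names and versions were not given in the sources used here. The deposited signal of a peak has no stated scale, and a deposited −log10 q-value stands beside it. The authors' −log10 q ran from 1.29 to 2.32 at the 7 thresholded summits of the gene set, and from 0.0263 to 0.856 at the 19 weaker ones. Signals rank peaks within a list only. Read depth is unknown, and the intervals cover counting error over genes alone. The lists deposited for ce10 were not used, and no coordinate was converted.

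Positions are 1-based ce11 (WBcel235). Ranks run by signal, with ties by position. A replicate's value at a summit is its strongest peak overlapping by at least 1 bp. Motifs were sought on both strands of the RefSeq WBcel235 sequence, within 50 bp of the summit and 500 bp to either side, and GAGAGA was added after the sequences were seen. With 1 group and no second condition, no test was made, and counts are read against all protein-coding genes. Every member with a summit is described with its values, and the rest are named. The members, lists and windows were chosen with earlier results of these data known. Alternatives were other windows, overlap in place of summits, nearest starts, a stronger set, other motifs and each replicate alone. Tools were matplotlib 3.10.9, scipy 1.17.1, pandas 2.3.3 and numpy 2.4.6 under Python 3.11.15, and the counting was tested on simulated data.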

Additional observations from a re-analysis of the deposited data

How the results depend on the processing

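No paired analysis was possible because there is 1 group and the results come from no test. The count of 5 genes with a thresholded summit (6.05% of all genes) stayed between 4 and 6 in most settings, but the all-gene share moved too. It was 4 with 1000 bp upstream to 250 bp downstream of any start (3.76% of all genes). With 500 bp upstream to the gene end it was 4 (3.98%), and with 5000 bp upstream 6 (9.17%). Overlap of peaks gave 5 (6.37%) and the nearest start 5 (4.26%). It was 4 without replicate 2 (5.65%) and 6 without replicate 1 (6.12%). Counting only thresholded peaks at or above the median signal left 2 genes, lrp-1 and mlt-7 (3.08%). Without replicate 2, dpy-6 and nekl-2 were not counted and dpy-31 was. Without replicate 1, let-4 was added. The count of 15 on the pooled list was 7 with 1000 bp upstream to 250 bp downstream of any start (12.2% of all genes), and 9 with 500 bp upstream to the gene end (16.7%), and was 11 without replicate 2 (23.4%) and 14 without replicate 1 (23.8%). Either replicate alone added mlt-11, and replicate 2 alone mlt-8 and mlt-9. Neither replicate alone counted tsp-15, phy-2 or ptr-4. Lost besides these were let-653 with replicate 2 alone, and let-4 and zmp-2 with replicate 1 alone. The density of 28.7 summits per Mb was 107 on the pooled list (all genes 58) and 117 in the 2 kb upstream (all genes 19.7), and 28.7 with either replicate alone. WGATAR lay within 50 bp of 6 of the 26 summits (23.1%), beside 33.6% of all pooled summits. It was 5 within 25 bp (18.7% of all pooled summits) and 15 within 100 bp (51.5%). For GATA it was 16 (58.4%) and for TGATAA 3 (19.7%). In the windows 500 bp to the left and right, 4 and 3 had WGATAR (22% and 20.5%). The median rank in replicate 1 moved from 3201 to 1752 when only replicate summits within 100 bp were taken, which left 22 sites. Depth is unknown, so a gene with no summit is one where none was listed, not one shown to be unbound.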

Other observations

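Runs of GAGAGA, sought after the summit sequences had been read, lay within 50 bp of 5 of the 7 thresholded summits of the gene set, beside 26% of all 1262 thresholded summits. The 5 were both sites of mlt-7, the outer site of pdi-2, dpy-6 and nekl-2, so nekl-2 had this run and WGATAR at once. In windows 500 bp to the left and right of the 7, 0 and 0 had it, and 6.18% and 5.47% of those around all thresholded summits. Among the 19 weaker summits of the gene set, 2 had it, at dpy-31 and phy-2, beside 13.2% of all weaker summits. Since the letters were picked from some of these same sequences, the count describes them and is no test.

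The mean GC content of the bases within 50 bp of the 7 thresholded summits was 47%, beside 43.8% over all thresholded summits, with the start site of pdi-2 the richest of those shown. The upstream site of let-4 and the weaker site of nekl-2 ranked 1247 and 1610 in replicate 2 and 17383 and 13072 in replicate 1, while the intronic site of mlt-7 and the outer site of dpy-31 ranked 1816 and 1071 in replicate 1 and 22187 and 18504 in replicate 2. The cause of these differences was not tested.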
